A study of Mus musculus with 12 samples.

Results

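The axon guidance ligands and receptors examined here were 67 of the 29428 genes in the deposited table, taken by gene symbol. They comprised 8 ephrins, 12 Eph receptors, 20 semaphorins, 9 plexins, 2 neuropilins, 4 netrins, 5 netrin receptors (Dcc and the Unc5 genes), 3 Slits and 4 Robos. Poly(A) RNA was sequenced from STHdhQ7 and STHdhQ111 cells, immortalized lines from the striatum of mice whose huntingtin carries 7 or 111 glutamines. Each line was either nontreated (Q7-C and Q111-C) or kept for 24 h with IFNγ at 100 ng/mL together with LPS at 5 μg/mL, the groups Q7-T and Q111-T, with 3 libraries in each of 4 groups. IFNγ is an inflammatory cytokine and LPS a bacterial cell wall component. Each genotype was represented by a single immortalized line, so glutamine number and line cannot be told apart. The paper calls the libraries of a group biological replicates, but no source used here says how they were separated, so the p-values measure the spread between these libraries, which may be partly technical.

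Guidance molecules steer growing axons and migrating cells. Netrins attract through Dcc and repel through Unc5 receptors, Slits repel through Robos, and class 3 semaphorins are secreted and bind neuropilins, which signal together with plexins. Ephrins are anchored in the membrane and bind Eph receptor tyrosine kinases on a neighbouring cell, and both partners can signal. The same families guide the projections to and from the developing striatum, and they also act in blood vessels, immune cells and connective tissue.

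Levels are given below as TPM, a transcript level scaled to the library's total and corrected for transcript length, always in the order of replicates 1, 2 and 3. Differences are log2 fold changes with their standard error (SE) from edgeR's quasi-likelihood test on the estimated counts, and a gene was called when its Benjamini-Hochberg adjusted p, taken over all 16127 genes tested, was under 0.05 and the change was at least 2-fold. Of the 67 members, 48 reached 0.5 TPM in at least 3 libraries and were tested. The other 19 stayed below this filter. Slit1 and Robo3 reached 0.5 TPM in Q111-T libraries alone, so they entered the tests through the group where they were high. Ephb2, Sema3e, Sema3g and Unc5c reached it in STHdhQ111 libraries alone, and Epha4 and Sema5b in STHdhQ7 libraries alone. The calls of these members are not independent of the filter. A gene counted as detected in a group when 1 of its libraries held more than 12 estimated counts, a floor of about 3 read pairs, and 4 of the 19 were detected in no group.

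Before the comparisons, the libraries themselves differed. They held 57505990 to 96417834 estimated counts. Libraries Q7-C 1, Q7-T 2 and Q111-T 2 stood apart: the TPM of the members summed to 484.0, 322.7 and 520.0 there and to 654.5 to 817.4 in the other libraries. In these 3 libraries the 1613 longest genes lay below the other libraries of the group, with median differences of -0.57, -0.61 and -0.34 on the log2 scale, and 9 of the 48 tested members belong to them. Counts are therefore also given without these libraries. The labels call the lines neuronal. Of 6 neuronal markers in the table, Snap25 and Syt1 were listed at 0 in every STHdhQ7 library and reached at most 0.025 TPM in STHdhQ111. The summed neuronal markers ranged from 102 to 114 TPM in Q7-C and 137 to 177 in Q7-T, against 18.4 to 22.9 in Q111-C and 41.1 to 47.7 in Q111-T. Tubb3 and Stmn2 made up most of the STHdhQ7 sums, while Dlg4 was at 5.11 to 9.21 TPM in Q7-T and 10.2 to 12.8 in Q111-T, and Map2 at 4.41 to 10.6 in Q7-C and 5.49 to 6.12 in Q111-C. The 8 mesenchymal markers summed to 5750 to 6110, 4390 to 4590, 5780 to 5960 and 2270 to 2570 TPM in the same order, with Thy1 at 0 in STHdhQ111, but their members ran in opposite directions. Acta2 was at 1600 to 1790 TPM in Q7-C and 24.6 to 56.0 in Q111-C, Col1a2 at 10.0 to 17.2 and 241 to 258, and Col3a1 at 20.4 to 31.5 and 113 to 153. The 5 oligodendrocyte lineage markers summed to 0.841 to 1.42 TPM in Q7-C and 17.4 to 22.8 in Q111-C, where nearly all of it was Pdgfra, with Sox10 at 0 in both groups, and the 6 astrocyte markers to 1.05 to 1.98 and 9.01 to 11.1, the latter mainly Slc1a3, with Aqp4 at 0 in both. With treatment these sums were 7.57 to 11.8 and 4.16 to 5.24 in Q111-T. The 4 macrophage or microglia markers, nearly all Tmem119 with Ptprc at most 0.00642 TPM, were at 12 to 13.3 in Q7-C and 3.07 to 3.49 in Q7-T, against 17.7 to 20.5 in Q111-C and 5.0 to 5.8 in Q111-T. The 5 striatal projection neuron markers, mostly Foxp1, summed to 6.65 to 8.33 in Q7-C and 9.58 to 11.2 in Q7-T, against 14.1 to 18.7 in Q111-C and 13.6 to 15.2 in Q111-T. Foxp1 overlapped between the nontreated lines, at 6.15 to 8.04 TPM in Q7-C and 7.34 to 12.3 in Q111-C. Penk was at most 0.429 in Q7-C and 4.01 to 5.42 in Q111-C, and Ppp1r1b 0.204 to 0.385 and 1.0 to 1.3. Endothelial markers, which matter because vessels use the same guidance families, summed to at most 1.83 TPM in any library, and none of the 6 passed the filter. The part of these marker shifts in the results below was not tested. In such bulk libraries, fewer cells of a type and less RNA per cell cannot be told apart. The treatment genes Irf1, Gbp2, Nos2 and Cxcl10 were higher in every treated library than in every nontreated library of the same line.

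The first question was how the lines differ in these genes. In nontreated cells, 24 of the 48 tested members (50%) were called between Q111-C and Q7-C, against 15.2% of all genes tested, with 10 higher (7.62% of all genes) and 14 lower (7.61%) in STHdhQ111. In treated cells, 23 (47.9%) were called against 24.5% of all genes, with 13 higher (13.3% of all genes) and 10 lower (11.2%). Both comparisons called 13 members (27.1%; 11% of all genes) in the same direction and none in opposite directions. Ephb2, Nrp1, Sema3e, Sema3g, Sema4f and Unc5c were higher in STHdhQ111 both times, and Epha4, Ntn4, Plxna2, Plxnd1, Sema5b, Slit2 and Unc5b were lower. The TPM of the groups did not overlap for 32 members (66.7%; 51.4% of all genes) in nontreated and 24 (50%; 46.3% of all genes) in treated cells. The median log2 fold change of the members was -0.02 and -0.06, beside -0.02 and -0.03 for all genes, which TMM scaling sets near 0. On TPM without count scaling these medians were 0.23 and 0.31 for the members and 0.27 and 0.34 for all genes, and limma on log2(TPM + 0.5) called 8 members higher and 6 lower in nontreated and 13 higher and 5 lower in treated cells.

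Some of these calls depended on the test or on 1 library. Limma on log2(TPM + 0.5) did not call Efna3, Efnb2, Ephb2, Ephb3, Nrp2, Ntn1, Ntn3, Plxnd1, Sema5a, Slit2 and Slit3 between the nontreated lines, nor Efna4, Epha4, Ephb6, Sema3a and Unc5b between the treated lines. In the nontreated comparison, edgeR without 1 library lost Slit2 in 7 and Sema5a in 9 of the 12 fits, with adjusted p up to 0.144 and 0.169. Slit2 kept its call without Q7-C 1, Q111-T 2 or any library of Q7-T, and Sema5a without Q7-C 1, Q7-T 2 or Q7-T 3. Efna3 was lost without Q7-C 1, Q7-C 2, Q111-C 1 or Q111-C 2, and Ntn3 without Q7-C 1, Q7-C 3, Q111-C 1 or Q111-C 2. Ephb3 was lost without Q111-C 1 or Q111-C 3, Nrp2 without Q7-C 3 or Q111-C 1, and Ntn1 without Q7-C 1. In the treated comparison, Efna2 was lost without Q7-T 1, Q7-T 3, Q111-T 2 or Q111-T 3. Efna4 and Epha2 were each lost without Q7-T 2 or Q111-T 1, Ephb6 without Q7-T 3 or Q111-T 2, and Sema3a without Q7-T 1. A fit of only the 6 treated libraries also ended the calls of Efna2, Epha2, Ephb6 and Sema3a, with adjusted p of 0.0913, 0.104, 0.0653 and 0.0581.

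**Figure D1:**
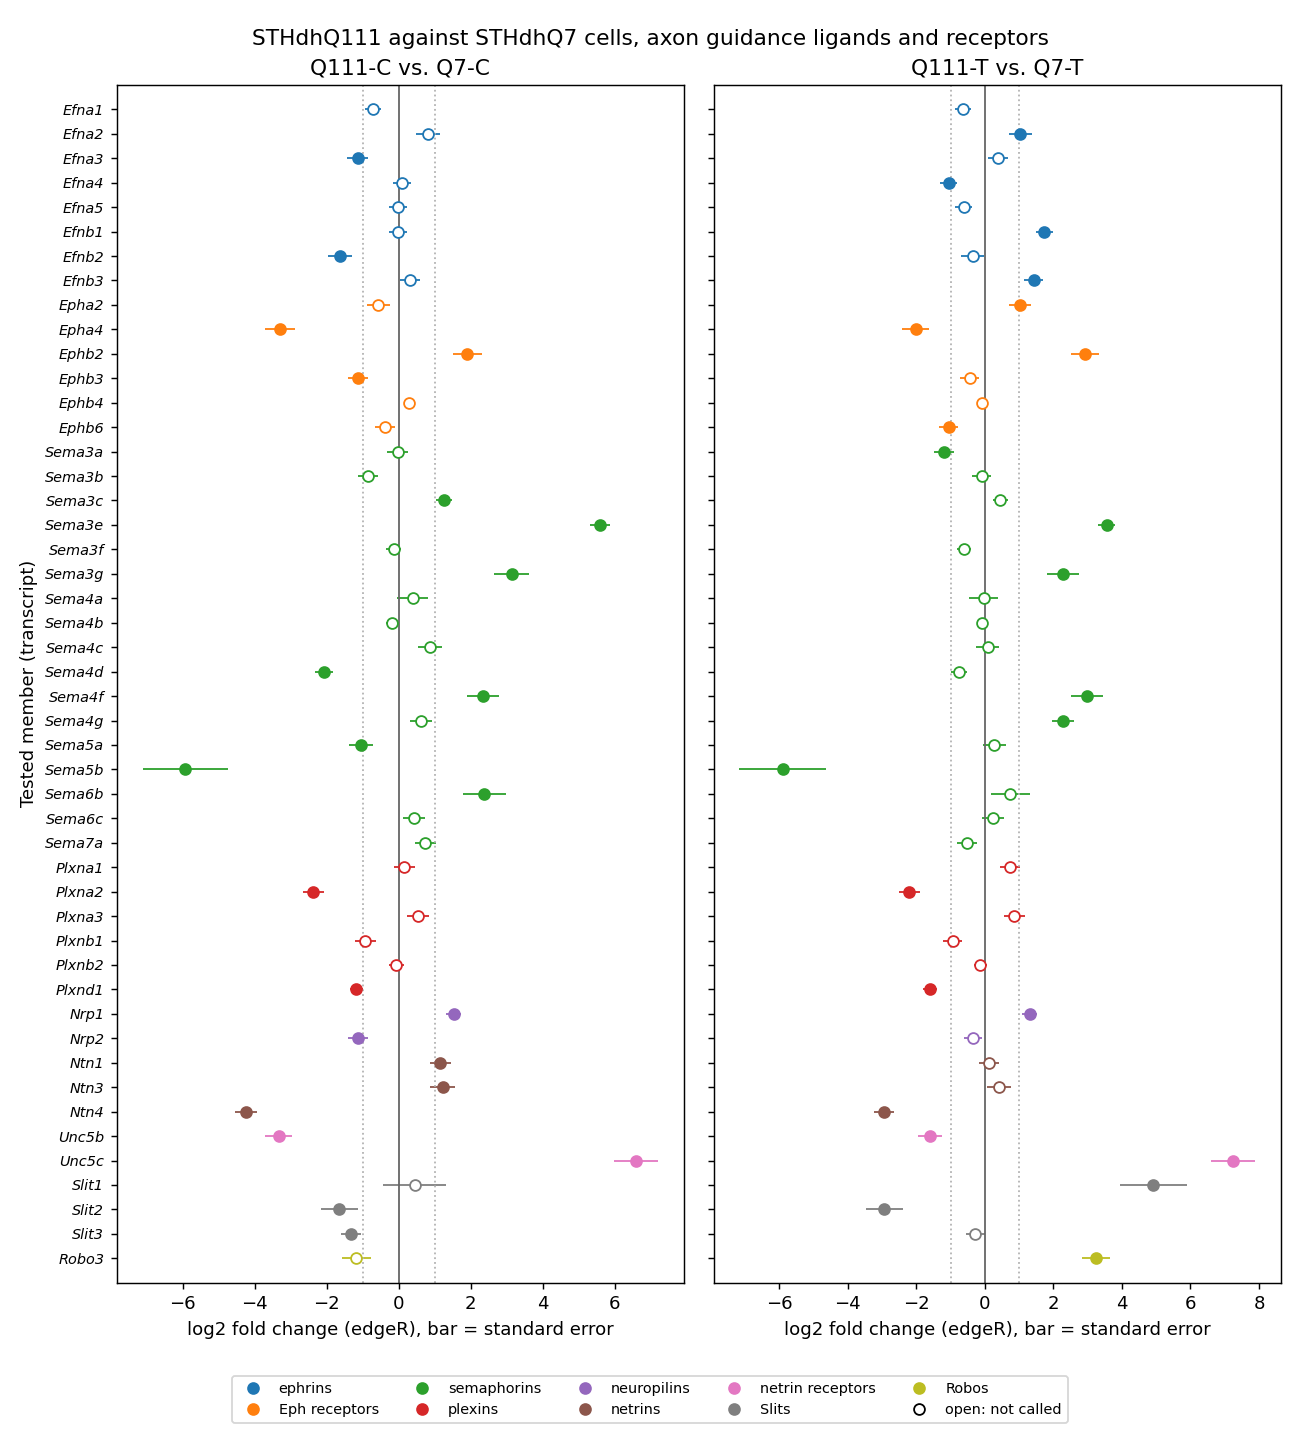
Log2 fold change of STHdhQ111 over STHdhQ7 cells for the 48 tested members, nontreated on the left and treated on the right. Points are edgeR estimates, bars the standard error, colours the families, filled points called members, and dotted lines mark 2-fold changes. Unc5c and Sema3e lie far to the right and Sema5b and Ntn4 far to the left in both panels.

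Between the nontreated lines, all 3 tested netrins and both tested Unc5 receptors were called. Between the treated lines, 1 netrin (33.3%) and both receptors were. Over all genes 15.2% and 24.5% were called. Netrin receptor transcripts in STHdhQ7 cells were almost all Unc5b, while STHdhQ111 cells also held Unc5c. Both encode receptors that mediate repulsion from netrin. In GRCm38, Unc5b spans chr10:60762593-60831581 on the minus strand and Unc5c chr3:141465216-141834924 on the plus strand. Unc5b was at 15.4, 27.2 and 27.8 TPM in Q7-C and 23.8, 5.02 and 24.3 in Q7-T, against 2.82, 3.11 and 2.58 in Q111-C and 9.59, 4.67 and 7.13 in Q111-T. Every Q7-C library was thus far above every Q111-C library, and the treated groups overlapped only through Q7-T 2. Unc5b was 10.1-fold lower in Q111-C than in Q7-C (log2 fold change -3.33, SE 0.376, adjusted p = 6.26e-05) and 3.03-fold lower in Q111-T than in Q7-T (-1.60, SE 0.352, adjusted p = 0.0043).

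Unc5c ran the other way. Its TPM was 0.0187, 0.0469 and 0.0192 in Q7-C and 0.0383, 0.0267 and 0.0041 in Q7-T, against 3.00, 3.71 and 3.5 in Q111-C and 4.80, 3.45 and 5.68 in Q111-T. The STHdhQ7 libraries held only 4 to 34 estimated counts of it and the STHdhQ111 libraries 1791 to 3321, so the size of the fold rests on a few reads in STHdhQ7. The fitted differences were 6.59 (SE 0.612, adjusted p = 1.5e-05) in nontreated and 7.24 (SE 0.635, adjusted p = 8.11e-06) in treated cells. Expressed as a share of the summed TPM of both genes, Unc5c made up 0.121% ± 0.0516 (n = 3, SD) in Q7-C and 0.235% ± 0.264 in Q7-T, against 54.5% ± 3.06 in Q111-C and 40.1% ± 5.86 in Q111-T. Since both genes belong to 1 library, this share does not depend on library scaling. The remaining netrin receptors, Dcc, Unc5a and Unc5d, did not pass the filter, and none of them exceeded 0.138 TPM in any library.

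Netrin ligands differed too. Netrin-4, encoded by Ntn4, is a basement membrane netrin that binds laminin. Ntn4 was at 8.44, 19.9 and 21.9 TPM in Q7-C and 10.9, 5.42 and 9.76 in Q7-T, against 1.17, 1.14 and 0.842 in Q111-C and 1.90, 1.31 and 1.10 in Q111-T. No STHdhQ111 library reached the lowest STHdhQ7 library. Ntn4 was 18.9-fold lower in STHdhQ111 without treatment (-4.24, SE 0.303, adjusted p = 2.1e-06) and 7.71-fold lower with it (-2.95, SE 0.286, adjusted p = 1.66e-05). Gene models on the opposite strand overlap Ntn4, and the strand setting of the counting was not stated.

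Ntn1 encodes netrin-1, the founding attractant of the family, and was the netrin with the highest mean TPM over all 12 libraries. In Q7-C, Ntn4 was higher (mean 16.8 against 4.68). Ntn1 was at 3.29, 5.30 and 5.46 TPM in Q7-C and 31.4, 7.53 and 26.6 in Q7-T, against 11.3, 13.5 and 13.7 in Q111-C and 37.7, 19 and 31.3 in Q111-T. Both treated groups lay wholly above their nontreated group. With treatment Ntn1 rose 4.96-fold in STHdhQ7 (2.31, SE 0.306, adjusted p = 0.000594) and 2.41-fold in STHdhQ111 (1.27, SE 0.295, adjusted p = 0.0105). The call in STHdhQ111 was lost without Q111-C 1 or without Q111-T 1, with adjusted p up to 0.0549 over the fits that each left out 1 library. The difference between these responses was -1.04 (SE 0.413, adjusted p = 0.186) and was not called. Between the nontreated lines Ntn1 was 2.23-fold higher in Q111-C (1.16, SE 0.295, adjusted p = 0.0143). Ntn1 accordingly made up 22.1% ± 3.98 of the summed netrin TPM in Q7-C and 67.5% ± 9.57 in Q7-T, against 84.2% ± 3.29 in Q111-C and 92.8% ± 1.34 in Q111-T, while the share of Ntn4 was 74.2% ± 5.08, 30.9% ± 8.45, 6.96% ± 1.53 and 4.76% ± 1.49 (n = 3 each, SD). Ntn3 was called higher in Q111-C (1.22, SE 0.347, adjusted p = 0.0249), but its gene overlaps Tbc1d24 on the same strand and reads could be shared. Ntn5 did not pass the filter.

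**Figure D2:**
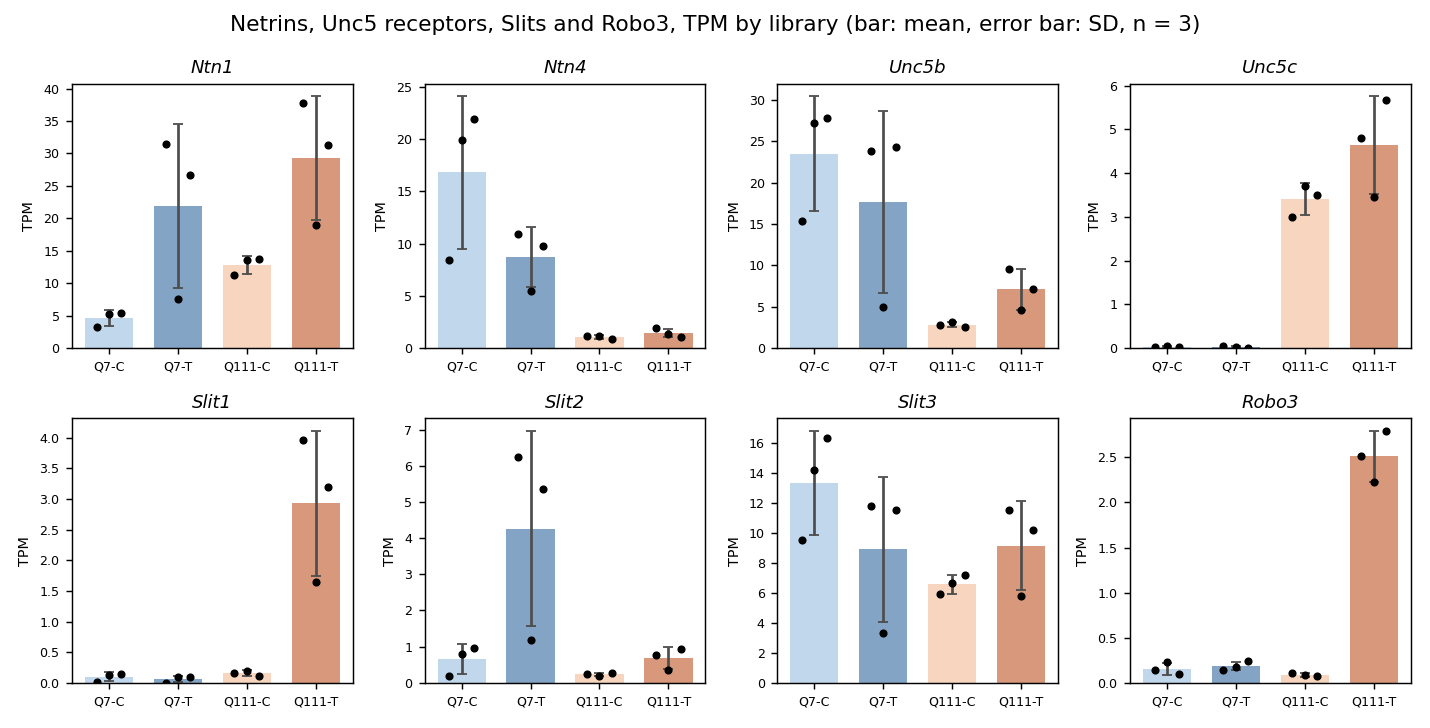
TPM of 4 netrin pathway genes and 4 Slit and Robo genes in each of the 12 libraries. Bars are group means, error bars the SD over 3 libraries and points the libraries. Unc5c is near 0 in STHdhQ7, Ntn1 is higher in treated cells of both lines, Slit2 is highest in Q7-T, and Slit1 and Robo3 are high in Q111-T alone.

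With treatment, Unc5b was 2.65-fold higher in Q111-T than in Q111-C (1.41, SE 0.352, adjusted p = 0.0157), and every Q111-T library exceeded every Q111-C library. The call was lost when any of Q111-C 1, Q111-C 2, Q111-C 3 or Q111-T 1 was left out, with adjusted p up to 0.0706. In STHdhQ7 the difference was -0.32 (SE 0.343, adjusted p = 0.744). The difference between the lines in this response was 1.73 (SE 0.490, adjusted p = 0.066). Promoter sequence is shown for Unc5b as a receptor that differed with both line and treatment. The 250 bases before its RefSeq start (GRCm38.p6, chr10:60831582-60831831, minus strand) are printed 5′ to 3′, with capitals for matches to the NF-kB pattern (GGG, 5 free bases, CC) on either strand, the 2 leftmost of which overlap.

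Unc5b: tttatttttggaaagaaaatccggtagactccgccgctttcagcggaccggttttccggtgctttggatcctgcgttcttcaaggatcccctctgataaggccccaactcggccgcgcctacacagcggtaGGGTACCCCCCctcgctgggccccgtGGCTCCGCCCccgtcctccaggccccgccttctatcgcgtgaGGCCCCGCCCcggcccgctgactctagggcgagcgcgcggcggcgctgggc

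The stretch held 4 matches to that pattern and none to the other patterns searched, GAS (TTCNNNGAA) and the ISRE core (GAAA, 2 free bases, GAAA, bound by interferon-regulated factors). These patterns were chosen because such elements occur in promoters that respond to IFNγ and LPS. The NF-kB pattern is loose: it occurred in 53.5% of the 300-base promoter windows of 27025 genes and in 44 of the 57 members with a window (77.2%). GAS occurred in 9.6% of genes and 3 members, and the ISRE core in 4.0% of genes and 2 members. The Unc5b stretch was 66.8% GC, against a median of 52.4% over all windows. Such matches describe the sequence and mark no binding.

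Among the Slits and Robos, Slit1 and Robo3 were called higher with treatment in STHdhQ111 cells. Slit2 was called higher in STHdhQ7 cells, and its rise in STHdhQ111 missed the threshold. The Slit genes encode large secreted repellents, and Slit3 had the highest level of the family. Slit3 was at 9.50, 14.2 and 16.3 TPM in Q7-C and 11.8, 3.33 and 11.5 in Q7-T, against 5.89, 6.64 and 7.18 in Q111-C and 11.5, 5.79 and 10.2 in Q111-T. It was 2.48-fold lower in Q111-C than in Q7-C, whose libraries did not overlap (-1.31, SE 0.279, adjusted p = 0.005), and was not called in the other comparisons.

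Slit2 was at 0.176, 0.806 and 0.956 TPM in Q7-C and 6.23, 1.19 and 5.37 in Q7-T, against 0.232, 0.202 and 0.275 in Q111-C and 0.768, 0.351 and 0.934 in Q111-T. All treated libraries of each line exceeded the nontreated ones. Slit2 rose 7.25-fold in STHdhQ7 (2.86, SE 0.535, adjusted p = 0.00747). In STHdhQ111 the difference was 1.58 (SE 0.518, adjusted p = 0.0558) and missed the threshold, while the difference between the responses was -1.28 (SE 0.715, adjusted p = 0.354). The STHdhQ7 call was lost with limma on log2(TPM + 0.5) and in a fit of only the 6 STHdhQ7 libraries. Between lines, Slit2 was lower in STHdhQ111 by 7.61-fold with treatment (-2.93, SE 0.537, adjusted p = 0.00139) and by 3.13-fold without it (-1.65, SE 0.519, adjusted p = 0.0403), where library Q7-C 1 lay below all Q111-C libraries.

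Slit1 was nearly absent outside Q111-T. It was at 0.0172, 0.128 and 0.150 TPM in Q7-C and 0, 0.0877 and 0.0984 in Q7-T, against 0.166, 0.200 and 0.104 in Q111-C and 3.96, 1.64 and 3.19 in Q111-T, with at most 42 estimated counts in any library of the first 3 groups and 322 to 847 in Q111-T. The lowest Q111-T library was therefore well above all 9 others. Slit1 rose 19.3-fold with treatment in STHdhQ111 (4.27, SE 0.940, adjusted p = 0.00772) and was 30.3-fold higher in Q111-T relative to Q7-T (4.92, SE 0.982, adjusted p = 0.0024). Its response in STHdhQ7 was -0.20 (SE 0.896), and the difference of the responses, 4.47 (SE 1.27), had an adjusted p of 0.066.

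Robo3 (chr9:37415669-37433246, minus strand), a divergent member of the Slit receptor family known for letting commissural axons cross the midline, was likewise high in Q111-T alone. It was at 0.140, 0.232 and 0.0972 TPM in Q7-C and 0.141, 0.179 and 0.239 in Q7-T, against 0.112, 0.0824 and 0.0719 in Q111-C and 2.51, 2.23 and 2.79 in Q111-T. Robo3 rose 29.5-fold in STHdhQ111 (4.88, SE 0.437, adjusted p = 1.29e-05), while in STHdhQ7 the difference was 0.46 (SE 0.381, adjusted p = 0.662). The responses differed by 4.42 (SE 0.558, adjusted p = 0.00109), the largest difference of responses among the members called. In treated cells Robo3 was 9.53-fold higher in STHdhQ111 (3.25, SE 0.402, adjusted p = 9.27e-05). Each library of Q111-T held 506 to 623 estimated counts, against 20 to 24 in Q111-C and 30 to 86 in STHdhQ7. The size of the fold thus rests on few reads in the other groups.

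Sequence upstream of Slit2 and Robo3 is shown because Slit2 had its highest level in treated STHdhQ7 and Robo3 in treated STHdhQ111 cells. The stretches end where an annotated exon begins, run 5′ to 3′ and use capitals as for Unc5b. They cover chr5:47982905-47983137 on the plus strand for Slit2 and chr9:37433247-37433425 on the minus strand for Robo3 (RefSeq, GRCm38.p6). Slit2 held 2 matches to the NF-kB pattern and Robo3 none, and neither held a GAS or ISRE core match.

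Slit2: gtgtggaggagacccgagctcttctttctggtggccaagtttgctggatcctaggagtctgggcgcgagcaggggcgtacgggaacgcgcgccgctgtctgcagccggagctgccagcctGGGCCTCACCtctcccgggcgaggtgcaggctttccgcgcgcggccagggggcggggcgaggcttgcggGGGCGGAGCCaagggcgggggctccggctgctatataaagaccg

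Robo3: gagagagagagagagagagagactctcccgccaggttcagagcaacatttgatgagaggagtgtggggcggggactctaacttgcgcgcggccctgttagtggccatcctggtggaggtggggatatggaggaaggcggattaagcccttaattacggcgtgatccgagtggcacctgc

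The other Robos were below the filter. Robo1, the main Slit receptor of forebrain axons, had at most 6 estimated counts in any STHdhQ7 library and 88 to 262 in STHdhQ111 libraries. The estimated counts of Robo1, scaled to library size with TMM, were measured against the floor of 12 per library. Their mean was at least 12.1-fold higher in Q111-C relative to Q7-C and at least 11.7-fold higher in Q111-T relative to Q7-T, with no test.

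Semaphorins were the largest family and shifted in both directions. The 20 genes had 17 tested members, of which 5 were higher and 3 lower in Q111-C than in Q7-C, and 4 higher and 2 lower in Q111-T than in Q7-T. Semaphorins were thus called at 47.1% and 35.3%, against 15.2% and 24.5% of all genes. Summed over the family, TPM was 90.6 ± 21.6 in Q7-C and 84.4 ± 20.2 in Q7-T, against 165 ± 13 in Q111-C and 126 ± 22.8 in Q111-T (n = 3, SD). Sema3c made up 31.8% ± 8.29 of this sum in Q7-C and 51.7% ± 2.69 in Q111-C. Sema3c, a secreted semaphorin that can attract cortical axons and neural crest cells, was at 14.9, 33.8 and 41.3 TPM in Q7-C and 51.3, 26.0 and 44.5 in Q7-T, against 76.0, 85.5 and 95.0 in Q111-C and 70.4, 57.2 and 87.4 in Q111-T. It was 2.39-fold higher in Q111-C relative to Q7-C (1.26, SE 0.221, adjusted p = 0.00147).

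Sema3e (chr5:14025276-14256689, plus strand) differed strongly between the lines. Semaphorin 3E binds plexin D1 directly, without a neuropilin, and steers striatal projection axons and vessels. It was at 0.115, 0.0921 and 0.170 TPM in Q7-C and 0.145, 0.0751 and 0.112 in Q7-T, against 6.63, 8.74 and 8.35 in Q111-C and 1.97, 1.19 and 2.14 in Q111-T. STHdhQ7 libraries never exceeded 0.170 TPM, and among STHdhQ111 libraries the nontreated ones were all above the treated ones. Sema3e was 48.4-fold higher in Q111-C relative to Q7-C (5.6, SE 0.279, adjusted p = 1.67e-07) and 11.7-fold higher in Q111-T relative to Q7-T (3.55, SE 0.257, adjusted p = 2e-06). With treatment it fell 4.22-fold in STHdhQ111 (-2.08, SE 0.235, adjusted p = 7.82e-05). In STHdhQ7 the difference was -0.03 (SE 0.248), and the responses differed by -2.05 (SE 0.339, adjusted p = 0.00519).

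The transcript for its receptor plexin D1, Plxnd1, ran opposite between the lines. Plxnd1 was at 21.7, 34.9 and 37.2 TPM in Q7-C and 30.4, 16.1 and 35.1 in Q7-T, against 16, 18.2 and 16.5 in Q111-C and 14.2, 7.43 and 13.3 in Q111-T. It was 2.26-fold lower in Q111-C (-1.17, SE 0.189, adjusted p = 0.000826) and 3.03-fold lower in Q111-T (-1.60, SE 0.192, adjusted p = 7.47e-05), without overlap of the libraries.

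The 250 bases upstream of Sema3e are shown as those of the ligand that fell with treatment in STHdhQ111 (RefSeq, GRCm38.p6, chr5:14025026-14025275, plus strand, capitals as above). This stretch was 48.0% GC and held 1 NF-kB pattern match. A GAS match, TTCCTAGAA, began 42 bases after the start and so outside the stretch printed.

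Sema3e: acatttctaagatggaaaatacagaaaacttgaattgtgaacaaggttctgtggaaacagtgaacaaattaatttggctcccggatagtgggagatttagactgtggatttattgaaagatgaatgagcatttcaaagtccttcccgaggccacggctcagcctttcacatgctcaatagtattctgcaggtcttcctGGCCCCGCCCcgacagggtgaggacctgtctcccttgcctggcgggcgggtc

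Sema3a encodes the classical semaphorin that collapses growth cones through neuropilin-1. It was at 0.672, 1.40 and 1.37 TPM in Q7-C and 0.552, 0.178 and 0.361 in Q7-T, against 1.25, 1.20 and 1.62 in Q111-C and 0.194, 0.222 and 0.170 in Q111-T. Treated libraries were lower than all nontreated libraries in either line. Sema3a fell 2.84-fold in STHdhQ7 (-1.51, SE 0.294, adjusted p = 0.00957) and 6.39-fold in STHdhQ111 (-2.68, SE 0.307, adjusted p = 8.73e-05), and the difference of the responses was -1.17 (SE 0.410, adjusted p = 0.134). In treated cells it was 2.29-fold lower in STHdhQ111 (-1.20, SE 0.296, adjusted p = 0.00822), although these libraries overlapped. The STHdhQ7 call was lost with limma on TPM and in the fit of only the 6 STHdhQ7 libraries.

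Nrp1, which encodes that co-receptor and also binds VEGF, fell with Sema3a. Its TPM was 3.43, 4.31 and 6.55 in Q7-C and 2.04, 1.89 and 1.92 in Q7-T, against 15.4, 16.5 and 18.6 in Q111-C and 6.99, 5.13 and 7.87 in Q111-T. Each treated group was wholly below its control, and each STHdhQ111 group wholly above the matching STHdhQ7 group. Nrp1 fell 2.04-fold in STHdhQ7 (-1.03, SE 0.212, adjusted p = 0.0138) and 2.38-fold in STHdhQ111 (-1.25, SE 0.212, adjusted p = 0.00151). The STHdhQ7 call was lost without Q7-C 3, Q7-T 1 or Q7-T 3, with a difference between -1.27 and -0.85 and adjusted p up to 0.0626 over the fits that left out 1 library. It was also lost in the fit of only the 6 STHdhQ7 libraries (adjusted p = 0.174) and with limma on log2(TPM + 1) or quantile-normalized values. Nrp1 was 2.89-fold higher in Q111-C relative to Q7-C (1.53, SE 0.214, adjusted p = 0.000304) and 2.48-fold higher in Q111-T relative to Q7-T (1.31, SE 0.213, adjusted p = 0.00065).

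Nrp2, the other neuropilin, was at 11.7, 25.6 and 30.5 TPM in Q7-C and 26.6, 9.11 and 24.1 in Q7-T, against 10.2, 13.9 and 13.1 in Q111-C and 22.9, 13.5 and 22.5 in Q111-T. It was called lower in Q111-C (-1.13, SE 0.266, adjusted p = 0.00921), with overlap through Q7-C 1. As a share of the summed neuropilin TPM, Nrp1 made up 18.2% ± 4.11 in Q7-C and 10.6% ± 5.72 in Q7-T, against 57.7% ± 3.13 in Q111-C and 25.6% ± 2.08 in Q111-T (n = 3, SD). Nrp1 was thus the more abundant neuropilin transcript in Q111-C only.

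**Figure D3:**
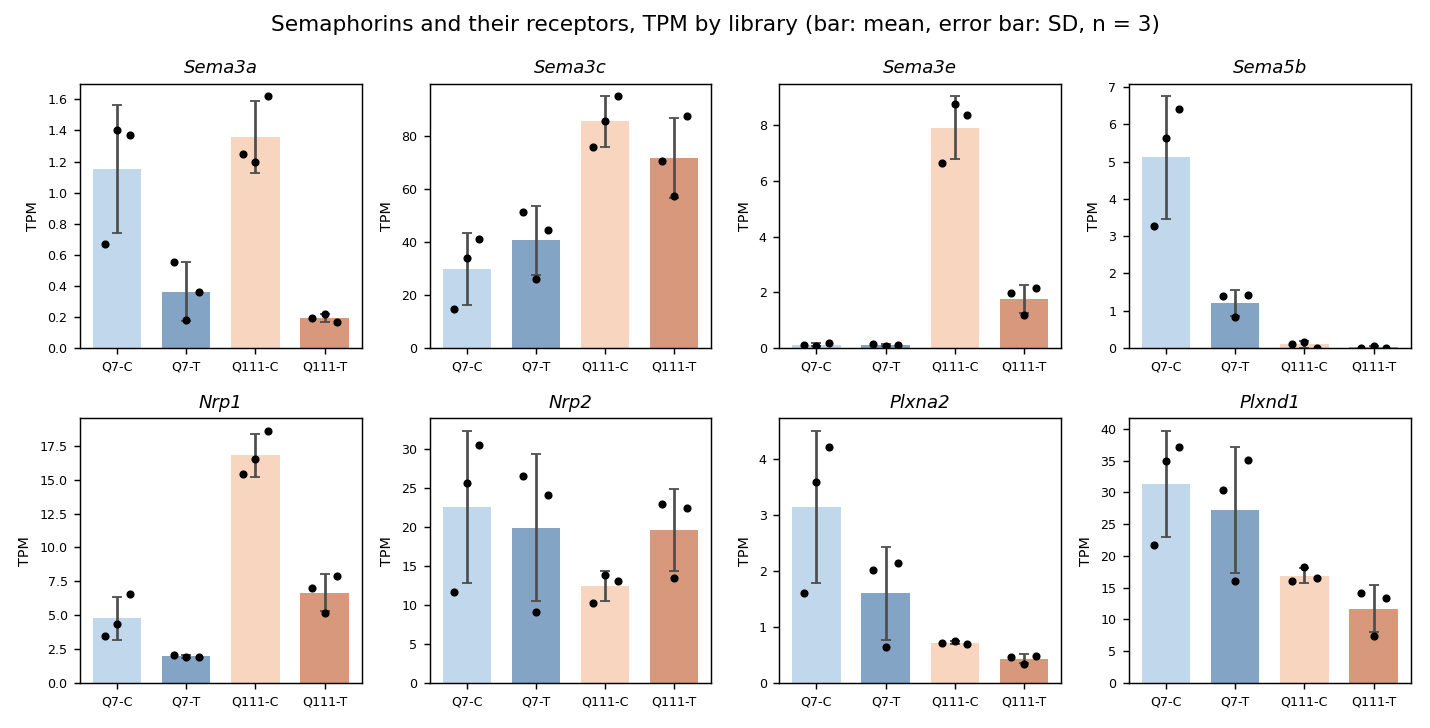
TPM of 4 semaphorins and 4 of their receptors in each of the 12 libraries. Bars are group means, error bars the SD over 3 libraries and points the libraries. Sema3e and Nrp1 are highest in Q111-C, Sema3a is low in both treated groups, and Sema5b is at 0.171 TPM or less in every STHdhQ111 library.

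Among the transmembrane semaphorins, Sema5b was a STHdhQ7 transcript. It was at 3.27, 5.64 and 6.41 TPM in Q7-C and 1.39, 0.823 and 1.43 in Q7-T, against 0.122, 0.171 and 0 in Q111-C and 0, 0.0680 and 0 in Q111-T. The fitted differences between lines were -5.92 (SE 1.19, adjusted p = 0.00355) without and -5.90 (SE 1.26, adjusted p = 0.00367) with treatment. These sizes are uncertain, since in STHdhQ111 only 3 of the 6 libraries held any count, from 17 to 44. Without Q111-T 2, the only Q111-T library with a count, the treated value was -11.57, which rests on libraries at 0 and is no bound. Its relative Sema5a, which can both attract and repel, was at 0.690, 1.36 and 1.82 TPM in Q7-C and 0.367, 0.116 and 0.413 in Q7-T, against 0.608, 0.913 and 0.725 in Q111-C and 0.398, 0.339 and 0.611 in Q111-T. Sema5a fell 3.91-fold with treatment in STHdhQ7 (-1.97, SE 0.342, adjusted p = 0.00457), where the groups did not overlap, and the difference in STHdhQ111 was -0.64 (SE 0.332, adjusted p = 0.23). In the fit of only the 6 STHdhQ7 libraries the adjusted p was 0.0592.

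Several low semaphorins were higher in STHdhQ111. Sema3g was at 0.125, 0.248 and 0.150 TPM in Q7-C and 1.99, 2.12 and 1.63 in Q111-C, with 0.277, 0.383 and 0.271 in Q7-T and 3.12, 0.909 and 2.70 in Q111-T. Sema4f was at 0.539, 0.264 and 0.531 TPM in Q7-C and 2.36, 3.45 and 3.11 in Q111-C, with 0.462, 0.249 and 0.140 in Q7-T and 3.81, 2.23 and 2.91 in Q111-T. In either condition no library of one line reached those of the other for these 2 genes. Without treatment Sema3g was 8.81-fold (3.14, SE 0.481, adjusted p = 0.000586) and Sema4f 5.12-fold higher in STHdhQ111 (2.35, SE 0.451, adjusted p = 0.0026), and with it 4.88-fold and 7.83-fold. Sema6b, a class 6 ligand of A-type plexins, was at 0.269, 0.142 and 0.114 TPM in Q7-C and 0.271, 0.518 and 0.270 in Q7-T, against 1.47, 0.907 and 1.28 in Q111-C and 1.36, 0.546 and 0.775 in Q111-T. It was called only between the nontreated groups (2.38, SE 0.602, adjusted p = 0.0138), and the adjusted p reached 0.0558 when Q7-C 2 or Q7-C 3 was left out. Over the fits that left out 1 library, the Sema6b difference ran from 2.11 to 3.07. Sema3d was below the filter, with at most 8 estimated counts in STHdhQ7 libraries and 30 to 149 in STHdhQ111 libraries. By the floor used for Robo1, its mean scaled count was at least 9.0-fold higher in Q111-C and at least 4.26-fold higher in Q111-T, with no test.

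Sema4d, a class 4 semaphorin whose product binds plexin B1, was at 2.89, 2.26 and 3.13 TPM in Q7-C and 2.61, 1.19 and 1.75 in Q7-T, against 0.838, 0.873 and 0.781 in Q111-C and 1.27, 1.47 and 1.45 in Q111-T. It was 4.22-fold lower in Q111-C (-2.08, SE 0.249, adjusted p = 0.0001). Treated values lay below or among the controls in STHdhQ7 and above them in STHdhQ111, with differences of -0.46 (SE 0.239, adjusted p = 0.406) and 0.86 (SE 0.243, adjusted p = 0.0281), neither of them 2-fold. The difference of the responses was 1.33 (SE 0.341, adjusted p = 0.0444), a call that was lost in 9 of the 12 fits that each left out 1 library, with adjusted p up to 0.125. Sema4d kept its call without Q7-C 2, without Q7-T 1 and without Q7-T 2. The call was also lost in 8 of 12 other alternatives, with upper-quartile scaling, no filter on low values, the 4 limma settings, the replicate block and without the 3 libraries that stood apart.

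Sema4g was at 0.438, 0.299 and 0.582 TPM in Q7-C and 0.292, 0.158 and 0.338 in Q7-T, against 0.6, 1.07 and 0.902 in Q111-C and 2.02, 1.32 and 1.63 in Q111-T. Its rise with treatment in STHdhQ111 (1.04, SE 0.308, adjusted p = 0.0359) lost the call when any library of Q111-C or Q111-T was left out, with adjusted p up to 0.152, but the treated lines differed 4.81-fold (2.27, SE 0.321, adjusted p = 0.000249). Sema7a, which encodes a semaphorin with a lipid anchor that acts through integrins, was at 1.10, 1.98 and 1.90 TPM in Q7-C and 1.31, 0.888 and 1.73 in Q7-T, against 3.54, 3.74 and 2.89 in Q111-C and 1.60, 0.663 and 1.34 in Q111-T. Sema7a fell 2.69-fold in STHdhQ111 (-1.43, SE 0.294, adjusted p = 0.00519), while in STHdhQ7 the difference was -0.15 (SE 0.289).

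Of 6 tested plexins, 2 were called between the lines in each condition, Plxna2 and Plxnd1, both lower in STHdhQ111, which is 33.3% against 15.2% of all genes without and 24.5% with treatment. Between the treated lines 5 of the 6 had an unadjusted p under 0.05. For such counts no share over all genes was taken, here and below. EdgeR called no plexin with treatment in either line. At an unadjusted p under 0.05, 1 plexin passed in STHdhQ7 and 2 in STHdhQ111, and DESeq2 and limma also called 0. Plxnb2, a plexin used in migrating neural progenitors and many other cells, was at 121, 197 and 211 TPM in Q7-C and 178, 88.5 and 199 in Q7-T, against 192, 218 and 209 in Q111-C and 224, 115 and 209 in Q111-T. It had the highest level of all members and made up 69.9% ± 1.14, 72.1% ± 2.40, 74.2% ± 0.204 and 71.6% ± 0.796 of the summed plexin TPM in these groups (n = 3, SD). Plxna2, a receptor for class 3 and class 6 semaphorins, was at 1.61, 3.59 and 4.21 TPM in Q7-C and 2.01, 0.634 and 2.14 in Q7-T, against 0.713, 0.748 and 0.7 in Q111-C and 0.469, 0.338 and 0.479 in Q111-T. It was 5.18-fold lower in Q111-C (-2.37, SE 0.296, adjusted p = 0.000133) and 4.59-fold lower in Q111-T (-2.20, SE 0.295, adjusted p = 0.000171), and no STHdhQ111 library overlapped with STHdhQ7 of the same treatment.

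Of 8 tested ephrins and 6 tested Eph receptors, edgeR called 2 and 3 between the nontreated lines and 4 of each between the treated lines. These are 25.0% of the ephrins and 50% of the Eph receptors against 15.2% of all genes, and 50% and 66.7% against 24.5%. With treatment it called 3 ephrins (37.5%) and 2 Eph receptors (33.3%) in STHdhQ111, against 11.2% of all genes, and 1 ephrin (12.5%) in STHdhQ7, against 4.04%. There, 4 Eph receptors had an unadjusted p under 0.05 and DESeq2 called 1 and limma 0, and the interaction called Efnb1 alone. Efna1, the ephrin with the highest level, was at 62.4, 64.4 and 56.0 TPM in Q7-C and 63.5, 53.3 and 58.4 in Q7-T, against 47.5, 50.2 and 43.8 in Q111-C and 54.9, 54.9 and 40.2 in Q111-T, and was not called anywhere. Its preferred partner Epha2 had the highest mean TPM of the Eph receptors over all 12 libraries, although Ephb4 was higher in Q111-C (mean 45.7 against 39.7). Epha2 was at 38.4, 49.5 and 53.8 TPM in Q7-C and 53.4, 10.4 and 48.9 in Q7-T, against 39.5, 40.3 and 39.4 in Q111-C and 114, 75.0 and 86.0 in Q111-T. The 3 Q111-T libraries were above all other libraries. Epha2 rose 2.46-fold in STHdhQ111 (1.30, SE 0.322, adjusted p = 0.0151) and was 2.02-fold higher in Q111-T relative to Q7-T (1.02, SE 0.320, adjusted p = 0.0269). This line difference was 0.66 without Q7-T 2, and its call was also lost with upper-quartile scaling and without the 3 libraries that stood apart. The treatment call was lost without Q111-C 1, Q111-C 2, Q111-C 3 or Q111-T 1, with adjusted p up to 0.0629. The response in STHdhQ7 was -0.28 (SE 0.317), and the difference of the responses was 1.57 (SE 0.451, adjusted p = 0.0692). Epha2 made up 39.5% ± 0.991 of the summed Eph receptor TPM in Q111-C and 71.8% ± 1.78 in Q111-T, while Ephb4 went from 45.3% ± 1.14 to 20.0% ± 0.540 (n = 3, SD).

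The B-type ephrins span the membrane and can signal into their own cell. Efnb1 was at 3.43, 3.66 and 4.56 TPM in Q7-C and 2.73, 0.977 and 3.05 in Q7-T, against 4.25, 5.00 and 5.10 in Q111-C and 11.5, 8.63 and 7.98 in Q111-T. Treated libraries were all below the controls in STHdhQ7 and all above them in STHdhQ111. Efnb1 rose 2.10-fold in STHdhQ111 (1.07, SE 0.251, adjusted p = 0.0109), the difference in STHdhQ7 was -0.69 (SE 0.251, adjusted p = 0.184), and the responses differed by 1.76 (SE 0.355, adjusted p = 0.0136). Between treated lines Efnb1 was 3.35-fold higher in STHdhQ111 (1.74, SE 0.256, adjusted p = 0.000318). The rise in STHdhQ111 lost its call without Q111-C 1 or Q111-T 1, with adjusted p up to 0.0567. The difference of the responses lost its call with limma on log2(TPM + 0.1) (1.84, adjusted p = 0.0758).

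Efnb3 was at 1.21, 1.69 and 1.61 TPM in Q7-C and 1.94, 0.729 and 1.70 in Q7-T, against 2.35, 3.05 and 1.59 in Q111-C and 5.81, 4.02 and 4.97 in Q111-T. Efnb3 rose 2.26-fold in STHdhQ111 (1.18, SE 0.274, adjusted p = 0.0106), a call lost without Q111-C 3 (adjusted p up to 0.0527), and was 2.68-fold higher in Q111-T relative to Q7-T (1.42, SE 0.276, adjusted p = 0.00203). In STHdhQ7 the difference with treatment was 0.07 (SE 0.272). Efnb2 was lower in Q111-C than in Q7-C (-1.63, SE 0.341, adjusted p = 0.00455) and was not called with treatment.

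**Figure D4:**
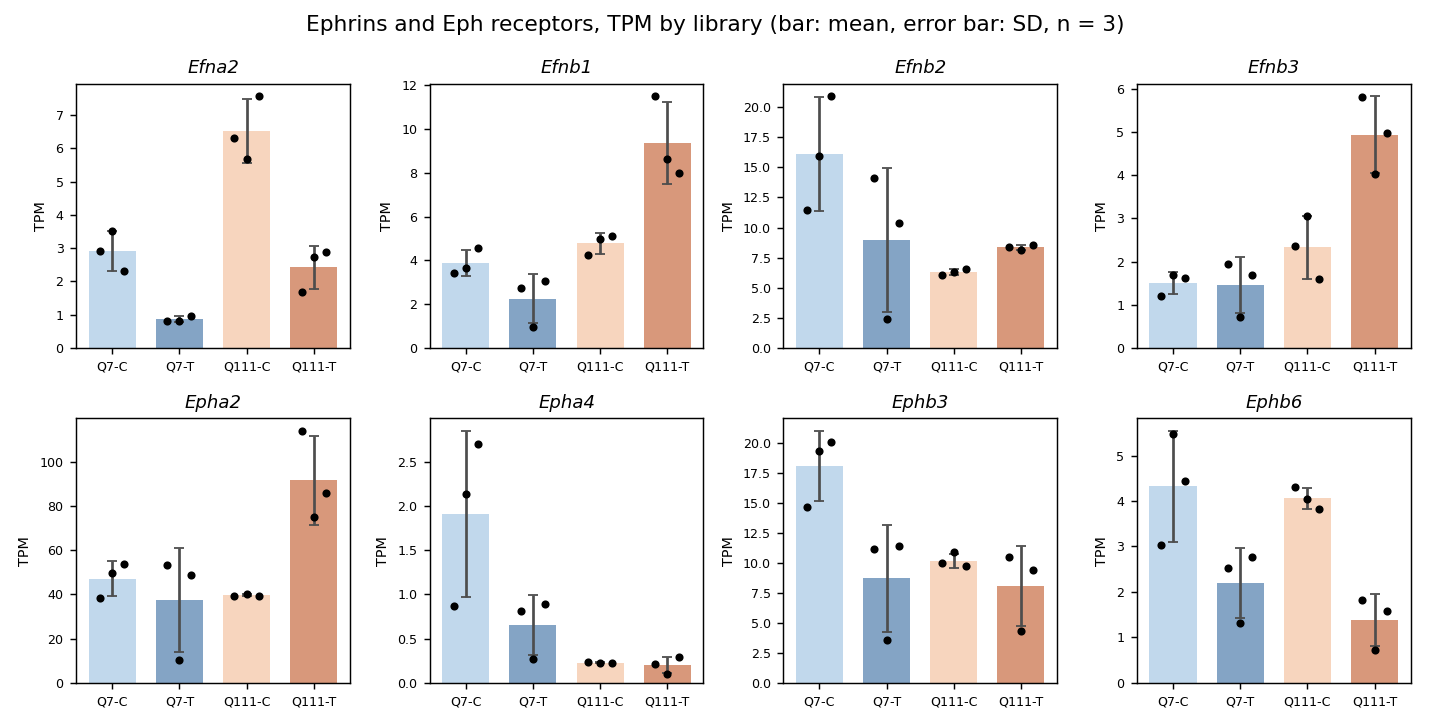
TPM of 4 ephrins and 4 Eph receptors in each of the 12 libraries. Bars are group means, error bars the SD over 3 libraries and points the libraries. Efnb1, Efnb3 and Epha2 are highest in Q111-T, Efna2 is lower in both treated groups, and Epha4 exceeds 0.291 TPM only in STHdhQ7 libraries.

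Efna2, an ephrin attached by a lipid anchor, fell with treatment in both lines. It was at 2.92, 3.51 and 2.31 TPM in Q7-C and 0.827, 0.827 and 0.975 in Q7-T, against 6.30, 5.69 and 7.56 in Q111-C and 1.69, 2.73 and 2.87 in Q111-T. Neither pair of groups overlapped. The fall was 2.89-fold in STHdhQ7 (-1.53, SE 0.337, adjusted p = 0.0202) and 2.47-fold in STHdhQ111 (-1.31, SE 0.331, adjusted p = 0.0167). Leaving out Q7-C 1, Q7-C 2, Q7-T 1 or Q7-T 3 ended the first call, with adjusted p up to 0.0746, as did the fit of only the 6 STHdhQ7 libraries (adjusted p = 0.122), and leaving out Q111-C 3 or Q111-T 1 ended the second, with adjusted p up to 0.0625.

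Among the Eph receptors, Epha4, which binds both ephrin types and mediates repulsion of corticospinal axons, was at 0.872, 2.14 and 2.70 TPM in Q7-C and 0.813, 0.265 and 0.887 in Q7-T, against 0.235, 0.228 and 0.221 in Q111-C and 0.208, 0.104 and 0.291 in Q111-T. It was 9.86-fold lower in Q111-C (-3.30, SE 0.419, adjusted p = 0.00015) and 4.05-fold lower in Q111-T (-2.02, SE 0.403, adjusted p = 0.00239), where Q7-T 2 fell within the STHdhQ111 range and the call was lost with limma on log2 TPM at each of 3 pseudocounts, with adjusted p up to 0.156 and a difference as small as -0.44. Ephb6, which lacks kinase activity, was at 3.04, 5.48 and 4.43 TPM in Q7-C and 2.53, 1.32 and 2.76 in Q7-T, against 4.30, 4.04 and 3.83 in Q111-C and 1.83, 0.732 and 1.57 in Q111-T. Ephb6 fell 2.80-fold in STHdhQ111 (-1.48, SE 0.273, adjusted p = 0.00254), and the difference in STHdhQ7 was -0.81 (SE 0.268, adjusted p = 0.137), with no overlap in either line. Ephb2 was higher in STHdhQ111 in both conditions (1.91 and 2.92, SE 0.394 and 0.411), at means of at most 0.653 TPM, and Ephb3 was lower in Q111-C only (-1.13, SE 0.282, adjusted p = 0.0126). Epha3 was at 0 in all 6 STHdhQ111 libraries and at 0.0839, 0.334 and 0.230 TPM in Q7-C, at least 6.44-fold lower in Q111-C by the floor of 12 counts. Epha7 was at 0 in all 6 STHdhQ7 libraries and at 16 to 87 estimated counts in those of STHdhQ111.

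The second question was the response to IFNγ/LPS and whether the lines share it. In STHdhQ7, 6 of the 48 tested members (12.5%) were called, against 4.04% of all genes, with 2 higher (2.93% of all genes) and 4 lower (1.11%). In STHdhQ111, 14 (29.2%) were called, against 11.2% of all genes, with 8 higher (8.28% of all genes) and 6 lower (2.96%). Groups did not overlap for 16 members (33.3%; 14.4% of all genes) and 27 members (56.2%; 49.6% of all genes). Both lines called Ntn1 higher and Efna2, Nrp1 and Sema3a lower (8.33%; 2.89% of all genes), none in opposite directions. Sema5a and Slit2 were called in STHdhQ7 alone, and Efnb1, Efnb3, Epha2, Ephb6, Robo3, Sema3e, Sema4g, Sema7a, Slit1 and Unc5b in STHdhQ111 alone.

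Being called in 1 line does not show that the lines differ, which the interaction of line and treatment tests. It called 4 of the 48 members (8.3%; 4.71% of all genes), 3 higher (3.52% of all genes) and 1 lower (1.20%): Robo3, Efnb1 and Sema4d, with the more positive response in STHdhQ111, and Sema3e with the more negative one. Without Q7-T 2 the count was 9. Without all 3 libraries that stood apart it was 16, of which 3 were among the 4, while the treatment counts were 8 in STHdhQ7 and 16 in STHdhQ111 and the line counts 24 and 21. This last setting was chosen after seeing the data. The STHdhQ111 treatment count of 14 was 9 without Q111-C 1, 9 without Q111-C 3 and 8 without Q111-T 1. The STHdhQ111 calls of Efnb1, Efnb3, Epha2, Ntn1, Sema4g and Unc5b were also lost with limma on log2(TPM + 0.5). The treatment comparisons use the control groups that also enter the nontreated line comparison, so those results are not independent.

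**Figure D5:**
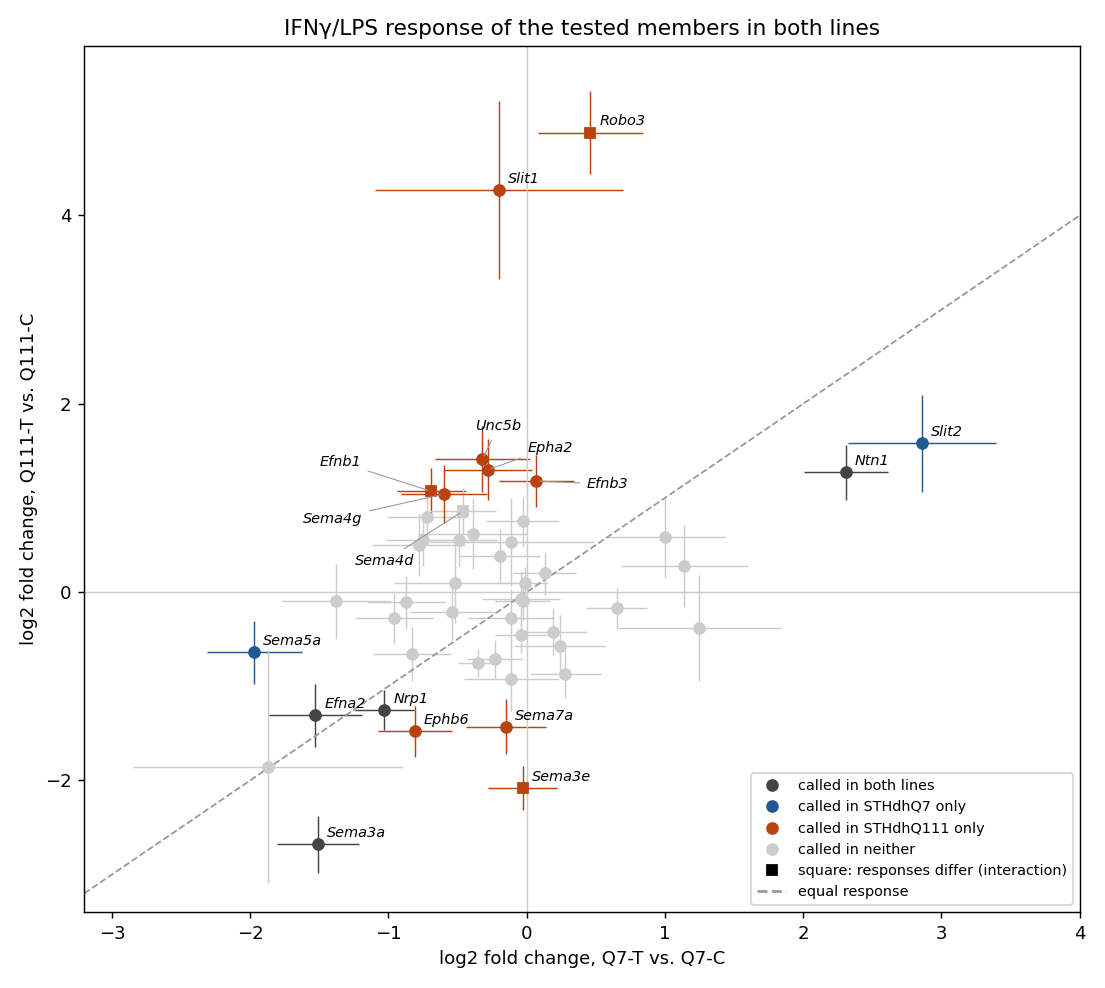
Log2 fold change with IFNγ/LPS in STHdhQ7 (horizontal) against STHdhQ111 (vertical) for the 48 tested members, with standard errors. The dashed line marks equal responses, colours the line in which a member was called, and squares the 4 members whose responses differed. Robo3 and Slit1 lie far above the line, while Ntn1, Nrp1, Efna2 and Sema3a moved the same way in both lines.

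A group of 13 tested members (27.1%; 67.8% of all genes) was called in none of the 4 pairwise comparisons: Efna1, Efna5, Ephb4, Plxna1, Plxna3, Plxnb1, Plxnb2, Sema3b, Sema3f, Sema4a, Sema4b, Sema4c and Sema6c. They include the most abundant ephrin and plexin. The ephrins together summed to 114 ± 3.56 TPM in Q7-C and 99.1 ± 16.9 in Q7-T, against 100.0 ± 4.71 in Q111-C and 97.2 ± 8.25 in Q111-T (n = 3, SD).

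Genes around these ligands and receptors were described with the same tests. Of 16 further guidance cues and receptors tested, 1 was higher and 5 lower in Q111-C than in Q7-C, 3 higher and 4 lower in Q111-T than in Q7-T, none higher and 3 lower with treatment in STHdhQ7, and 2 higher and 2 lower in STHdhQ111. In this order 37.5%, 43.8%, 18.8% and 25.0% were called, against 15.2%, 24.5%, 4.04% and 11.2% of all genes. Cxcl12, a chemokine that guides migrating neurons, had a mean of 15.7 ± 4.06 TPM in Q7-C and 23.7 ± 12.4 in Q7-T, against 4.65 ± 0.309 in Q111-C and 1.36 ± 0.249 in Q111-T, and its responses differed by -2.37 (SE 0.340, adjusted p = 0.00218). Flrt2, a ligand of Unc5 receptors, was at 4.28 ± 2.22, 2.30 ± 1.23, 2.73 ± 1.81 and 11.6 ± 2.19 TPM in the same order and rose in STHdhQ111 (2.18, SE 0.451, adjusted p = 0.00527). Flrt3 fell in STHdhQ7 (-2.52, SE 0.368, adjusted p = 0.00125). L1cam, an adhesion molecule that partners neuropilin-1, fell with treatment in both lines (-1.19 and -1.31, SE 0.284 and 0.286).

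Of 40 intracellular transducers tested, 1 was higher and 8 lower in Q111-C than in Q7-C, and 2 higher and 7 lower in Q111-T than in Q7-T. This was 22.5% in both, against 15.2% and 24.5% of all genes. With treatment, 3 rose and 1 fell in STHdhQ111 (10.0%, against 11.2% of all genes) and edgeR called 0 in STHdhQ7, where 8 had an unadjusted p under 0.05 and DESeq2 and limma also called 0. Dpysl3, a collapsin response mediator that relays semaphorin 3A, was at 51.2 ± 16.5 TPM in Q7-C and 25.4 ± 6.91 in Q7-T, against 7.58 ± 0.622 in Q111-C and 4.35 ± 0.939 in Q111-T. Rnd1, a small GTPase that binds plexins, was at 42.7 ± 4.16, 75.1 ± 25.7, 29.5 ± 0.561 and 280.0 ± 21.4 TPM in that order and rose in STHdhQ111 (3.35, SE 0.181, adjusted p = 3.15e-07), and its responses differed by 2.42 (SE 0.237, adjusted p = 0.000254). Dpysl5 rose in STHdhQ111 as well (2.90, SE 0.3, adjusted p = 3.71e-05). Of 8 proteases that cut guidance molecules, Mmp2 alone was called, higher in STHdhQ111 in both line comparisons (2.02 and 2.12, SE 0.129 and 0.130). This is 12.5% of the list, below the 15.2% and 24.5% of all genes.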

How the data were processed

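RNA was measured in 12 libraries, 3 in each of 4 groups given by the labels. Per the submitters' processing notes and methods, the authors trimmed stranded poly(A) reads with cutadapt, aligned them to GRCm38 with HISAT2 and quantified with StringTie, with versions not given. The deposited table pairs each gene with estimated counts per library and with TPM, both from the authors. TPM of its 29428 rows summed to 688352 to 719623 per library. Low estimated counts favoured multiples of 4, so 12 were taken as about 3 read pairs. Such floors cover counting error only.

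Members were taken by symbol. The members and lists were chosen with earlier results of these data known. Rounded estimated counts of the 16127 genes that reached 0.5 TPM in 3 or more libraries were fitted with edgeR 4.0.16 (quasi-likelihood test, TMM scaling, R 4.3.3), 1 mean per group over all 12 libraries, and Benjamini-Hochberg adjustment over all genes. Exact permutation of TPM, 3 libraries against 3, cannot go below p = 0.1 and was not used for calls. The edgeR script was tested on simulated data with known changes. It recovered 21 of 100 2-fold and 68 of 100 4-fold changes between the treated lines. In STHdhQ111 with treatment it recovered 14 and 59, and in the interaction 1 and 32. A 2-fold change lies at the threshold, so real changes can go uncalled. Alternatives used DESeq2 1.42.0, limma 3.58.1, other scalings, filters and pseudocounts, and each library left out. No 2 libraries of a group agreed within sampling noise (smallest chi-square per degree of freedom 5.06 on the estimated counts divided by 4).

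Every member called with treatment or in the interaction, the 5 called with the highest and lowest log2 fold change between lines in each condition, and the member of each family with the highest mean TPM over all 12 libraries were given in every library. Plxnd1 was added after its values were seen. Promoter windows came from RefSeq (GRCm38.p6), which matched 57 of the 67 members by symbol. A further gene of the treatment check is not reported here.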

Additional observations from a re-analysis of the deposited data

Results flagged for a closer look

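The IFNγ/LPS response differed between STHdhQ7 and STHdhQ111 cells by the interaction test of edgeR for 4 members. Robo3 had the largest difference, 4.42 on the log2 scale (adjusted p = 0.00109), with 2.23 to 2.79 TPM in Q111-T and at most 0.239 TPM in the other 9 libraries. It passed the filter only through Q111-T, the group where it was high. For Sema3e the difference was -2.05 (adjusted p = 0.00519), with lower values in every Q111-T library than in every Q111-C library and no such separation in STHdhQ7. For Efnb1 it was 1.76 (adjusted p = 0.0136), with all treated libraries below the controls in STHdhQ7 and above them in STHdhQ111. This call was lost with limma on log2(TPM + 0.1) (1.84, adjusted p = 0.0758). For Sema4d it was 1.33 (adjusted p = 0.0444), and this call was lost in 9 of 12 fits that each left out 1 library and in 8 of 12 other alternatives. The differences of Robo3 and Sema3e kept their calls in every alternative and without any single library. Library Q7-T 2, which held the lowest summed TPM of the members, belongs to each of these tests, and its part in them beyond those fits was not tested.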

How the results depend on the processing

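Of the 71 calls of members over the 5 comparisons, 35 were kept in every alternative that gave them an adjusted p, the fits of only the 6 libraries compared and without the 3 that stood apart included, 48 in every fit without 1 library and 34 in both, and 0 changed direction. Between nontreated lines, 24 members were called by edgeR, 14 by limma on log2(TPM + 0.5) and 12 by limma on log2(TPM + 1). Between treated lines, limma on log2(TPM + 1) called 15 instead of 23. In STHdhQ7 with treatment, a fit of only its 6 libraries called 2 instead of 6, of which 1 was among the 6. In STHdhQ111 with treatment, limma called 8 (pseudocount 0.5), 8 (pseudocount 0.1) and 7 (pseudocount 1) instead of 14. For the interaction, DESeq2 called 14 instead of 4, limma 7 (pseudocount 0.5), 7 (pseudocount 1) and 8 (quantile-normalized), counts divided by 4 gave 7, and leaving out Q7-C 1, Q7-T 2 and Q111-T 2, chosen after seeing the data, gave 16. The cause of these differences was not tested. Leaving out 1 library gave 18 to 25 and 22 to 23 calls between nontreated and treated lines, 4 to 7 and 8 to 15 with treatment in STHdhQ7 and STHdhQ111, and 3 to 9 in the interaction. The replicate numbers did not pair the libraries: the correlation of deviations of equally numbered libraries ran from -0.42 to 0.30. A fit with the replicate number as a block called 24, 23, 6, 13 and 3 members in the order above.

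Depth limits the genes with few reads: Unc5c in STHdhQ7, Sema5b in STHdhQ111, Slit1 outside Q111-T and Robo3 in Q111-C rested on at most 44 estimated counts per library. Sema3e held 28 to 70 in STHdhQ7 libraries. The size of these folds is less certain than their direction. Members below the filter were not tested.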
